A study of Mus musculus with 22 samples.

Results

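The 10 genes described here, Slc2a1, Slc7a5, Mfsd2a, Slco1a4, Abcb1a, Cldn5, Pecam1, Ly6c1, Flt1 and Tek, are genes that endothelial cells of brain blood vessels use to form or mark the blood-brain barrier. They were taken by name, with no threshold on a measured value but with earlier results of these data known. They are 10 of the 23119 genes in the count table. RNA was sequenced from bulk striatum of adult male C57BL/6J mice, with no transgene or mutation in any group. Mice of the oxycodone groups worked for infusions of the opioid at 0.25 mg/kg in daily sessions of 4 h over 14 days, and yoked mice received saline on the same schedule. There were 5 oxycodone and 5 saline libraries of dorsal striatum, and 6 and 6 of ventral striatum, 22 in all. The drug and control over the infusions differ together between the groups, and the labels do not give the amount of drug each mouse took or the time between the last session and dissection. The labels do not tie libraries to single animals, so p-values measure the spread between libraries. Among the dorsal libraries, oxycodone replicates 2 and 3 share a title number, as do saline replicates 2 and 3.

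Capillaries of the brain are lined by endothelial cells sealed to each other by tight junctions, so that most molecules enter only through a cell. Carriers in their membranes bring in glucose, amino acids and lipids, and efflux pumps return many drugs to the blood, some opioids among them. Endothelial cells are a small share of striatal tissue, and in bulk RNA fewer cells of a type and less RNA per cell cannot be told apart.

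Totals ran from 8408829 to 11000345 counts in ventral libraries and from 11314079 to 21921963 in dorsal ones. Every member had counts in every library, and all 10 passed the filter on low counts in every comparison. Levels below are CPM, counts relative to the library total after TMM scaling over all libraries. The general endothelial list of 35 other genes was present in every library, with summed levels from 652 to 1310 CPM. Both sixth ventral libraries stood apart. Saline ventral replicate 6 had 261 CPM summed over 9 markers of striatal projection neurons, against 3000 to 4010 CPM in the other 5 saline ventral libraries, and so went against its label as striatum. It also had the most endothelial RNA of its group. Oxycodone ventral replicate 6 had 7310 CPM over the same markers, against 3200 to 4020 CPM in the rest of its group, and 1820 CPM over 9 choroid plexus genes, against 37.7 to 76.4 CPM. Ventral results, and those comparing regions in saline mice, are therefore given with and without these libraries. Saline ventral replicate 1 had 740 CPM summed over 7 vascular smooth muscle genes, against 73.3 to 127 CPM in the rest of its group. Over 8 genes of perivascular fibroblasts and meninges it had 233 CPM and saline ventral replicate 6 had 266 CPM. The rest of that group had 41.1 to 59.9 CPM. Dorsal libraries also varied in choroid plexus genes, from 82.1 to 3630 CPM, in both treatments.

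The sequences just before the starts of 4 genes are shown because these genes stand out in the comparisons that follow. Slc2a1 and Mfsd2a had the lowest p of the members for oxycodone in dorsal and in ventral striatum, Ly6c1 had the largest log2 change in both, and Cldn5 and Ly6c1 had the largest differences between regions. Each window is the 250 bases before the RefSeq start on GRCm38.p6, on the gene's strand. The last 34 bases of the Slc2a1 window lie inside the transcript as GENCODE M21 starts it, so only the 216 bases before them are printed. RefSeq gave a window for 8 of the 10 members. Capitals mark every match within the printed bases, on either strand, to 6 motifs: the GC box GGGCGG, the TATA box TATAAA, the hypoxia response core ACGTG, the interferon gamma activated site TTCNNNGAA, the ETS family core AGGAAG and the glucocorticoid receptor half-site AGAACA. A match is a string of letters and no evidence of binding.
Slc2a1: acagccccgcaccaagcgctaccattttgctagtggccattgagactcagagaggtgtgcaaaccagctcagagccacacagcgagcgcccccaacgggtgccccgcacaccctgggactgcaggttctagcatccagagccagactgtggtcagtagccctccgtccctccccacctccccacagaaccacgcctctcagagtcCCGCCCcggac
Mfsd2a: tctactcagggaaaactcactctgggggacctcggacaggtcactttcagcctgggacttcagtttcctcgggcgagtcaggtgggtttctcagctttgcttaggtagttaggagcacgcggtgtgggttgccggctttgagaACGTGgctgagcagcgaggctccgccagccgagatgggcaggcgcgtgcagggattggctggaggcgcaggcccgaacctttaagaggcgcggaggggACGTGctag
Ly6c1: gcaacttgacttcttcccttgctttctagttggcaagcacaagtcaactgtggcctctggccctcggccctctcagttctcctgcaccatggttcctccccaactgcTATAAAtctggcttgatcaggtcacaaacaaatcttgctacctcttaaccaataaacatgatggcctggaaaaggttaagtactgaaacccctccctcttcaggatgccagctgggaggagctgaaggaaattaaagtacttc
Cldn5: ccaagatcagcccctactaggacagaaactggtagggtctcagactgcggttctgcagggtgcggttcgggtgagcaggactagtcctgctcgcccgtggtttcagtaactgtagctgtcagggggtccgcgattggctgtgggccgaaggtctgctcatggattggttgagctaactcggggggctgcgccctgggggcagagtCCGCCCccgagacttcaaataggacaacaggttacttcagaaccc
Slc2a1 lies on chromosome 4 from 119108711 to 119137983 (plus strand, GENCODE M21 on GRCm38, as for the genes that follow), and the bases printed for it are chr4:119108495-119108710. Its whole window holds 2 GC boxes, at positions -45 and -20 from the RefSeq start, and 1 hypoxia response core at -36. Of these only the GC box at -45 lies wholly before the GENCODE start. Mfsd2a, at 122946850 to 122961188 on the minus strand of chromosome 4, has the window chr4:122961189-122961438, with 2 hypoxia response cores at -107 and -9. Ly6c1, at 75044018 to 75048830 on the minus strand of chromosome 15, has the window chr15:75048838-75049087, with a TATA box match at -143. Cldn5, at 18776847 to 18778262 on the plus strand of chromosome 16, has the window chr16:18776597-18776846, with a GC box at -45. These windows were 66.4%, 61.6%, 48.4% and 59.6% G or C in the order named, against a median of 52.4% over all 32851 windows. Over all windows of the same length, 32.7% held the GC box, 16.6% the hypoxia response core, 12.4% the TATA box, 29.5% the ETS core, 16.1% the glucocorticoid half-site and 7.02% the interferon gamma site. The motifs are common, and none of them was found in all 4 windows.

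Levels of different genes can be compared only per length of transcript, so the order among members is given in CPM per kilobase of exon. In saline dorsal striatum Slc2a1, which encodes the glucose carrier GLUT1, was highest at 47.2 ± 7.63 CPM per kb (SD, n = 5). Ly6c1, a small surface protein anchored on brain endothelium, followed at 37 ± 8.95 CPM per kb. Slc2a1 and then Ly6c1 led in all 4 groups, with each gap to the next gene larger than the larger SD. Mfsd2a (17.7 ± 3.23), Cldn5 (15.5 ± 4.14), Abcb1a (13.1 ± 2.28) and Slco1a4 (12.2 ± 2.61 CPM per kb) formed a middle level in saline dorsal striatum in which no neighbours were further apart than their spread. Tek (6.96 ± 0.95), Flt1 (6.81 ± 0.999), Slc7a5 (6.52 ± 0.964) and Pecam1 (6 ± 0.548 CPM per kb) were lowest, again with no gap beyond the spread among them. Among saline mice Cldn5 changed place most between regions, from rank 4 in dorsal to rank 7 in ventral striatum, where it had 6.6 ± 3.03 CPM per kb (n = 6). Among oxycodone mice Flt1 did, from rank 8 in dorsal to rank 5 in ventral striatum.

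**Figure D1:**
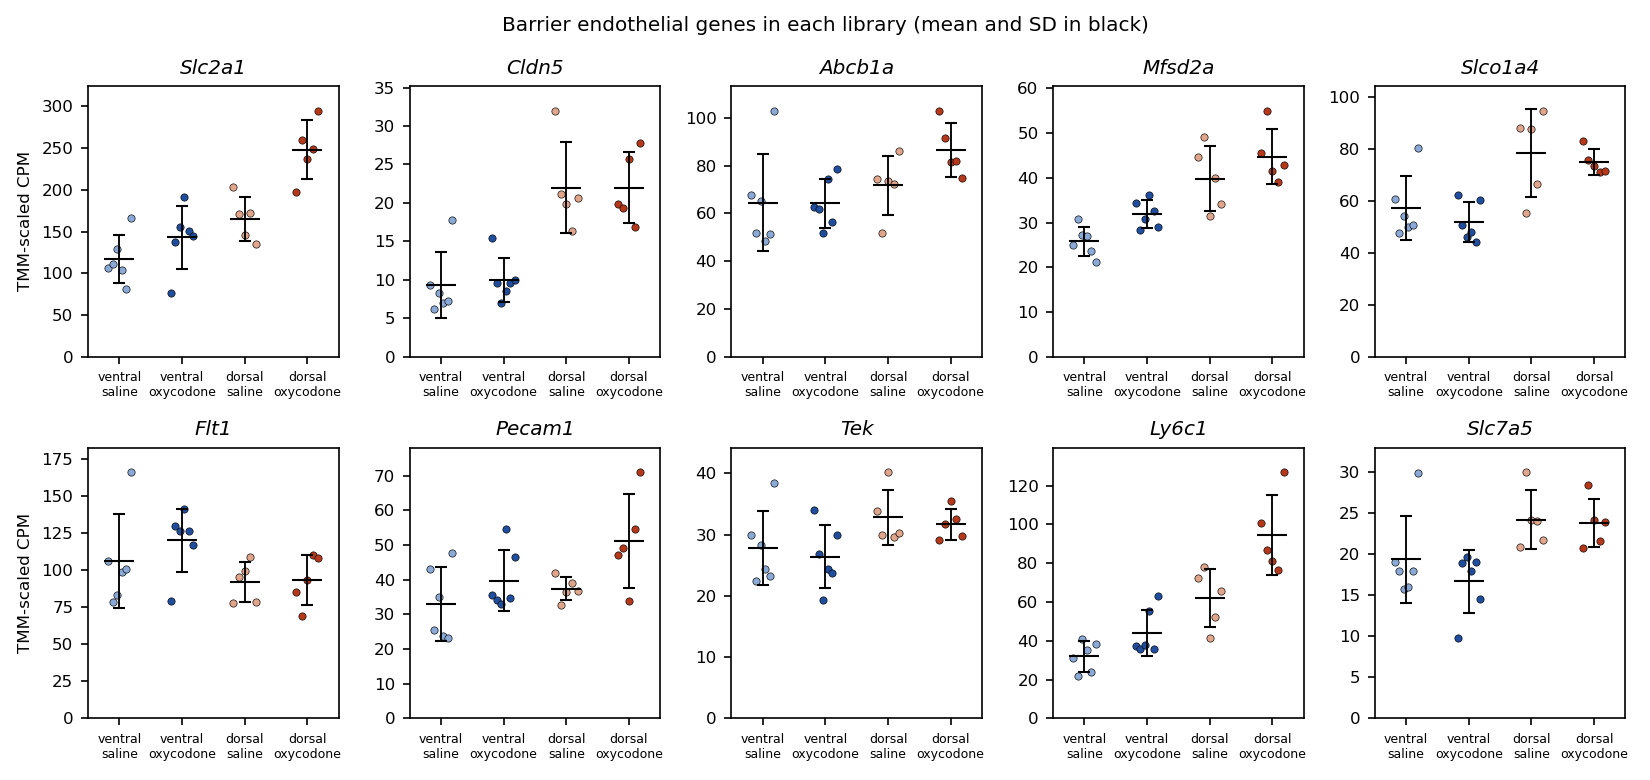
TMM-scaled CPM of the 10 barrier genes (vertical axes, each from 0) in the 22 libraries by region and treatment (horizontal axis). Points are libraries in replicate order, and black marks are the mean and SD of 6 ventral or 5 dorsal libraries. Slc2a1 and Ly6c1 are highest in dorsal oxycodone libraries, Cldn5 is higher in dorsal libraries of both treatments, and saline ventral replicate 6, the last point of the first group in each panel, is the highest of its group for 8 of the 10 genes.

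Oxycodone was first compared with saline in dorsal striatum. Slc2a1 rose 1.5-fold in oxycodone mice, the only member past the threshold of 0.05 on the adjusted p. Ly6c1 and Pecam1 had higher means in oxycodone mice without passing it, and the tight junction gene Cldn5 had the same mean in both groups. Of all 14595 genes tested, 30 passed, which is 0.206%, and 1 of the 10 members did. The median log2 fold change was 0.09 over the members and -0.01 over all genes tested.

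Slc2a1 was at 204, 171, 146, 172 and 135 CPM in saline replicates 1 to 5 and at 197, 260, 237, 249 and 295 CPM in oxycodone replicates 1 to 5. Of the 5 oxycodone libraries 4 were above every saline library, and oxycodone replicate 1 lay just under saline replicate 1. The means were 165 ± 26.8 and 248 ± 35.5 CPM (SD, n = 5 each). The log2 fold change was 0.58 with a standard error (SE) of 0.10, a 95% interval of 0.37 to 0.8 and an adjusted p of 0.0162 (edgeR quasi-likelihood test, Benjamini-Hochberg, two-sided). Leaving out single libraries kept the log2 change between 0.51 and 0.67, while the edgeR adjusted p was above 0.05 without oxycodone replicate 2 (0.0538) or saline replicates 2 (0.0525), 3 (0.0538) or 5 (0.0677). The 5 libraries without the title suffix P, 2 oxycodone and 3 saline, gave 0.44 with an edgeR adjusted p of 0.77. In the libraries with the suffix Slc2a1 passed, as the only gene of 15075 tested, and it also passed with the suffix as a covariate. Of 13 alternatives other than leaving out 1 library, 10 called Slc2a1. Summing the libraries that share a title number gave 0.58 with an edgeR adjusted p of 0.0833.

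The other carriers did not pass the test. Slc7a5, a carrier of large neutral amino acids that also brings levodopa into the brain, was at 20.9, 30, 24.2, 24.1 and 21.7 CPM in saline and at 20.7, 28.4, 24.2, 21.6 and 23.9 CPM in oxycodone libraries. Its log2 change was -0.02, with a 95% interval of -0.34 to 0.3, and the groups overlapped nearly in full. Mfsd2a carries lipids that bear docosahexaenoic acid and keeps vesicle transport across the endothelium low. It was at 44.7, 49, 31.4, 39.9 and 34.1 CPM in saline and at 45.5, 55, 41.5, 39 and 42.9 CPM in oxycodone libraries, with a log2 change of 0.17 (interval -0.11 to 0.45). Slco1a4, a carrier of organic anions such as bile acids and steroid conjugates, was at 88.1, 55.1, 87.5, 66.5 and 94.6 CPM in saline and at 82.9, 75.6, 73.3, 71 and 71.4 CPM in oxycodone libraries. All 5 oxycodone values lay within the wider saline range, and the log2 change was -0.07 (interval -0.31 to 0.18).

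Abcb1a encodes P-glycoprotein, the efflux pump of the capillary wall. It was at 74.6, 51.6, 73.7, 72.3 and 86.1 CPM in saline and at 103, 91.7, 81.4, 81.8 and 74.7 CPM in oxycodone libraries, so that 2 oxycodone libraries were above every saline library. The log2 change was 0.27 (SE 0.12, interval 0.03 to 0.51), with an adjusted p of 0.752 by the edgeR quasi-likelihood test. Its close copy Abcb1b, which encodes a second P-glycoprotein, was between 2.2 and 8.78 CPM in the saline and between 3.95 and 7.39 CPM in the oxycodone dorsal libraries, with a log2 change of -0.05. Of the 50-base stretches of Abcb1a transcripts, 16.3% also occur in Abcb1b, so a part of the reads could have been shared between them.

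Cldn5 encodes claudin-5, the main strand protein of endothelial tight junctions. It was at 32, 21.1, 19.9, 16.4 and 20.6 CPM in saline and at 19.9, 19.4, 25.7, 16.9 and 27.8 CPM in oxycodone libraries. The groups overlapped throughout, and the log2 change of 0 had a 95% interval of -0.38 to 0.38. Pecam1, an adhesion protein at endothelial contacts that is also carried by platelets and white blood cells, was at 41.9, 32.6, 36.5, 38.9 and 36.8 CPM in saline and at 47, 49, 33.7, 54.7 and 71 CPM in oxycodone libraries. Here 4 oxycodone libraries were above every saline library, and the third was not. The log2 change was 0.45 (SE 0.15, interval 0.15 to 0.75), with an adjusted p of 0.407 (edgeR).

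Ly6c1 was at 72.5, 78.2, 41.6, 52.1 and 65.6 CPM in saline and at 101, 86.7, 80.9, 76.3 and 127 CPM in oxycodone libraries. Again 4 oxycodone libraries were above every saline library, and oxycodone replicate 4 lay just under saline replicate 2. The log2 change, 0.61 (SE 0.17, interval 0.26 to 0.96), was as large as that of Slc2a1, but the adjusted p was 0.289 by edgeR. It was 0.0316 by DESeq2 and 0.0471 by limma-voom, and 0.0474 by edgeR after summing libraries that share a title number. Its copy Ly6c2, a marker of monocytes, was too low to be tested; it had 0 to 7.03 CPM in oxycodone and 0.0879 to 0.655 CPM in saline dorsal libraries, highest in oxycodone replicate 5. Of the 50-base stretches of Ly6c1, 32.8% also occur in other genes, 21.5% in Ly6c2, with Ly6a next. A part of the reads could have been shared among these genes.

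The receptors showed no difference past the test. Flt1, a receptor for vascular endothelial growth factor that also acts as a trap for it, was at 78, 95.4, 99, 109 and 78.4 CPM in saline and at 85, 69.1, 93, 110 and 108 CPM in oxycodone libraries, with a log2 change of 0.01 (interval -0.23 to 0.25). Tek encodes TIE2, the angiopoietin receptor that steadies vessels. It was at 33.8, 30, 40.2, 29.6 and 30.3 CPM in saline and at 29.1, 31.8, 35.5, 32.6 and 29.7 CPM in oxycodone libraries, with a log2 change of -0.05 (interval -0.33 to 0.24). For both genes the ranges of the groups overlapped almost fully.

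No member had dorsal groups without overlap, against 1.3% of all genes tested. At an unadjusted p under 0.05 stood 4 members (Slc2a1, Ly6c1, Pecam1 and Abcb1a, all with higher means in oxycodone mice), against 5.64% of all genes.

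Ventral striatum was compared in the same way. No member passed the edgeR test, and neither did any of the 14116 genes tested (0%). At an unadjusted p under 0.05 stood Mfsd2a and Ly6c1, against 9.13% of all genes, 1289 in number. DESeq2 called 38 genes and limma-voom 61, with no member among either. The median log2 change of the members was 0.14, against 0 over all genes, and no member had groups without overlap, against 0.758% of genes.

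Mfsd2a ranged from 21.2 CPM through a median of 25.9 to 30.7 CPM in saline and from 28.3 through 31.6 to 36.2 CPM in oxycodone libraries. The ranges overlapped, and 3 of the 6 oxycodone values exceeded the highest saline value. Its means were 25.8 ± 3.3 and 31.9 ± 3.1 CPM (SD, n = 6 each), with a log2 change of 0.32 (SE 0.09, interval 0.12 to 0.52) and an adjusted p of 0.393 (edgeR). Ly6c1 ranged from 22 through a median of 33.2 to 41 CPM in saline and from 35.7 through 37.4 to 63.1 CPM in oxycodone libraries. Its log2 change was 0.47 (SE 0.20, interval 0.05 to 0.9), with an adjusted p of 0.514 (edgeR), and oxycodone replicates 4 and 6 were the high ones.

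Slc2a1 ranged from 81.8 through a median of 109 to 166 CPM in saline and from 76.1 through 148 to 192 CPM in oxycodone libraries. Its log2 change was 0.3 with an interval of -0.15 to 0.75 that holds both no change and the value of dorsal striatum. Both ends of the oxycodone range lay outside the saline range. Pecam1 (0.27, interval -0.18 to 0.72), Flt1 (0.19, -0.21 to 0.59) and Cldn5 (0.1, -0.47 to 0.67) had log2 changes above 0. Slc7a5 (-0.22, -0.64 to 0.2), Slco1a4 (-0.14, -0.43 to 0.16) and Tek (-0.07, -0.41 to 0.26) had log2 changes below 0, and Abcb1a was at 0 (-0.4 to 0.39). None of these intervals left out 0.

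The ventral median rested on saline replicate 6. Without both sixth libraries the median log2 change of the members was 0.32, against 0 over all genes, and still no member or other gene passed the edgeR test. Flt1 then averaged 93.4 ± 12 CPM with saline against 120 ± 23.7 CPM with oxycodone (SD, n = 5 each), a log2 change of 0.37 with an adjusted p of 0.399 (edgeR). Cldn5 had 7.65 ± 1.2 and 10 ± 3.17 CPM, a log2 change of 0.39 with an adjusted p of 0.496 (edgeR). Mfsd2a, at 0.28 with an adjusted p of 0.32 (edgeR), moved little. Leaving out saline replicate 6 alone gave the same median of 0.32, and leaving out saline replicate 1 alone gave 0.14. The 4 libraries of lane 2, which hold both sixth libraries, gave a median of -0.16, and the 8 of lane 1 gave 0.27.

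Whether the oxycodone difference itself was unlike in the 2 regions was tested over all 22 libraries. No member passed, and no gene of 14938 did (0% called, 674 genes at an unadjusted p under 0.05, and 0 genes by DESeq2 or limma-voom). For Slc2a1 the dorsal minus ventral difference in log2 change was 0.29 (SE 0.26, interval -0.24 to 0.83), with an adjusted p of 0.981 (edgeR). Abcb1a had 0.28 (interval -0.2 to 0.76) and Mfsd2a -0.14 (-0.48 to 0.21). Without the sixth ventral libraries the differences were 0.15 for Slc2a1, 0.15 for Abcb1a and -0.13 for Mfsd2a, and the median of the members went from 0.11 to -0.01, with 4 instead of 7 of them above 0. No member passed there either. With all libraries, the interval of 6 members held both no difference and one of 0.58, the dorsal change of Slc2a1.

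**Figure D2:**
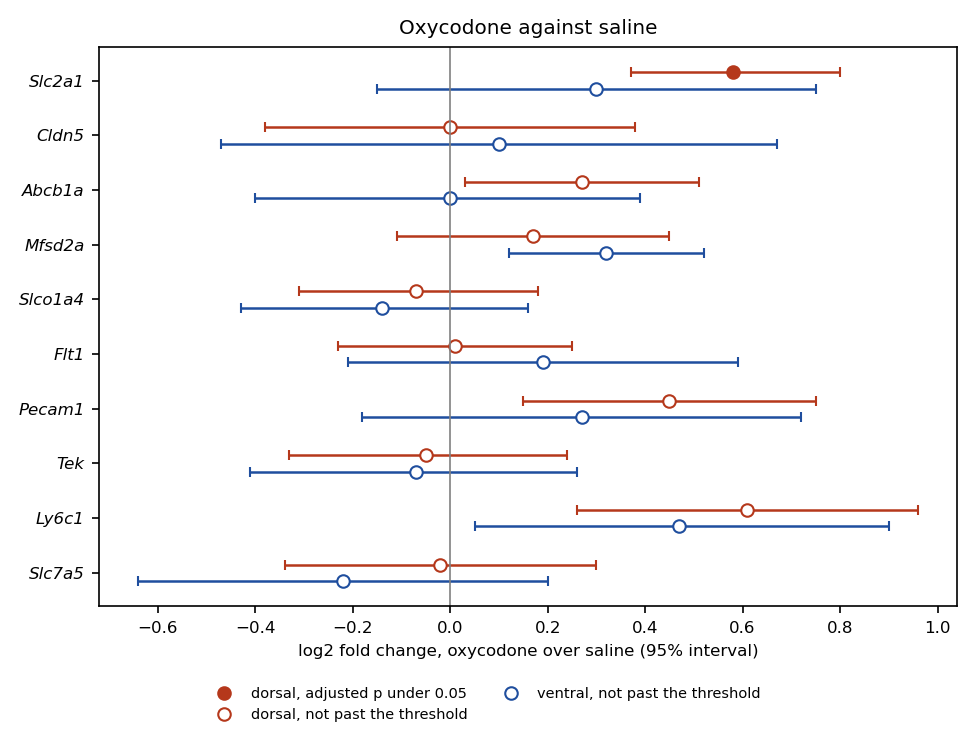
Log2 fold change of oxycodone over saline (horizontal axis) for the 10 genes (vertical axis) in dorsal (red) and ventral (blue) striatum, with 95% intervals. Filled points passed an adjusted p of 0.05 by the edgeR quasi-likelihood test. The dorsal value of Slc2a1, 0.58, is the one filled point.

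Dorsal was then compared with ventral striatum within each treatment. These comparisons use the same libraries as the ones above, so they are no independent evidence on them. Cldn5 was more than 2-fold higher in dorsal striatum, Ly6c1 close to that, and Slc2a1, Mfsd2a and Slco1a4 were higher too, in both treatments. Flt1 had a lower mean in dorsal striatum in both treatments. The labels put dorsal and ventral libraries in separately named sets, which also differed in depth and in mitochondrial reads (2.93% to 4.12% of counts dorsal, 5.98% to 9.25% ventral), so region and library set cannot be told apart.

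In saline mice 5 of 10 members were higher in dorsal striatum and none was lower. Of the 14433 genes tested 45.8% passed, 23.6% higher and 22.3% lower. The median log2 change was 0.37 over the members and -0.01 over all genes. In oxycodone mice 7 members were higher and 1 lower, against 47.2% of 14375 genes, 23.5% higher and 23.7% lower. The median was 0.48 over the members and -0.01 over all genes. Without the sixth ventral libraries 7 members passed in oxycodone mice, and Flt1, the lower member, did not (-0.38, adjusted p 0.0563 by edgeR). Groups did not overlap, with dorsal higher, for 2 members in saline mice (Mfsd2a and Ly6c1) and 6 in oxycodone mice (all the higher ones but Abcb1a), against 16.3% and 15.1% of genes. The share of members called in either direction in saline mice, 5 of 10, was near that of all genes.

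Markers of some other cells were also higher in dorsal striatum, and those of others were lower. In saline mice 7 of 9 microglia genes were higher (median log2 change 0.51), 6 of 7 oligodendrocyte genes (1.16), 4 of 9 astrocyte genes (0.38) and 5 of 8 tested choroid plexus genes (2.02). Without the sixth ventral libraries the saline counts were 7 of 9, 7 of 7, 5 of 9 and 6 of 8, with medians of 0.56, 1, 0.47 and 1.97. In oxycodone mice the counts were 8, 4, 4 and 0, with medians of 0.6, 0.77, 0.45 and 0.93. These oxycodone counts include ventral replicate 6, with its high choroid plexus level, and were not read without it. Striatal projection neuron genes had medians of 1.31 in saline and 0.61 in oxycodone mice. In saline mice the medians were -2.17 for glutamatergic neurons, -0.8 for vascular smooth muscle and -0.54 for perivascular fibroblasts and meninges. Without the sixth ventral libraries these 3 were -1.13, -0.87 and -0.02, and in oxycodone mice -1.37, 0.3 and -0.13. Further junction genes, further transporters and general endothelial genes had medians closer to 0 than the members did. In saline mice these were 0.12 for further junction genes, -0.07 for further transporters and receptors and 0.14 for general endothelial genes. Without the sixth ventral libraries they were 0.14, 0.03 and 0.25. In oxycodone mice they were -0.02, 0.07 and 0.18. Genes of leaky or inflamed endothelium had medians of 0.34 in saline mice, 0.49 without the sixth ventral libraries and 0.38 in oxycodone mice. Pericyte genes had medians of 0.24, 0.34 and 0.34 in the same order. The part of tissue makeup in the members' differences between regions was not tested.

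Cldn5 ranged from 6.28 through a median of 7.8 to 17.8 CPM in saline ventral striatum, against 16.4 to 32 CPM in saline dorsal libraries. The single overlap was saline ventral replicate 6, at 17.8 CPM, with saline dorsal replicate 4. The means were 9.35 ± 4.29 (n = 6) and 22 ± 5.87 CPM (n = 5), a log2 change of 1.22 (SE 0.26, interval 0.66 to 1.77) with an adjusted p of 0.00154 (edgeR). In oxycodone mice Cldn5 ranged from 7.02 through 9.6 to 15.4 CPM in ventral libraries, below all 5 dorsal ones, with a log2 change of 1.1 and an adjusted p of 0.000143 (edgeR). Cldn5 was called in all 11 fits that left out 1 library, in either treatment.

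Ly6c1 had means of 31.9 ± 7.75 CPM in saline ventral and 62 ± 15 CPM in saline dorsal libraries, with every dorsal library above every ventral one. The log2 change was 0.95 (SE 0.19) in saline mice, with an adjusted p of 0.00103, and 1.07 (SE 0.18) in oxycodone mice, with an adjusted p of 0.00023 (edgeR). Mfsd2a followed with 0.62 (adjusted p 0.00152) in saline and 0.46 (adjusted p 0.00177) in oxycodone mice by edgeR, also without overlap. Slc2a1 was at 0.5 (adjusted p 0.0189) and 0.77 (adjusted p 0.00362), and Slco1a4 at 0.45 (adjusted p 0.0336) and 0.5 (adjusted p 0.000589) by edgeR. The saline call of Slco1a4 was lost in 7 of the 11 fits that left out 1 library, with adjusted p values from 0.064 to 0.0951 in those (edgeR). Without saline dorsal replicate 1 the saline call of Slc2a1 was lost too (0.41, adjusted p 0.0561 by edgeR), leaving 3 members.

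Abcb1a (0.41, adjusted p 0.00797) and Slc7a5 (0.49, adjusted p 0.0191) passed in oxycodone mice by edgeR. In saline mice they had 0.14 and 0.3 and did not pass. Without the sixth ventral libraries 8 members passed in saline mice: Abcb1a (0.35, adjusted p 0.0326), Slc7a5 (0.49, adjusted p 0.00485) and Tek (0.36, adjusted p 0.0225) joined the 5 (edgeR). The median of the members was then 0.54. Flt1 ranged from 79.3 through a median of 126 to 141 CPM in oxycodone ventral libraries, and was between 69.1 and 110 CPM in oxycodone dorsal ones, so that the ranges overlapped widely. Its log2 change of -0.39 (SE 0.14) passed with an adjusted p of 0.0342, a call that 8 of the 11 fits leaving out 1 library lost (edgeR). In saline mice Flt1 was at -0.21 (interval -0.58 to 0.17). Pecam1 (0.17 and 0.34) and Tek (0.23 and 0.24) passed in neither treatment with all libraries.

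**Figure D3:**
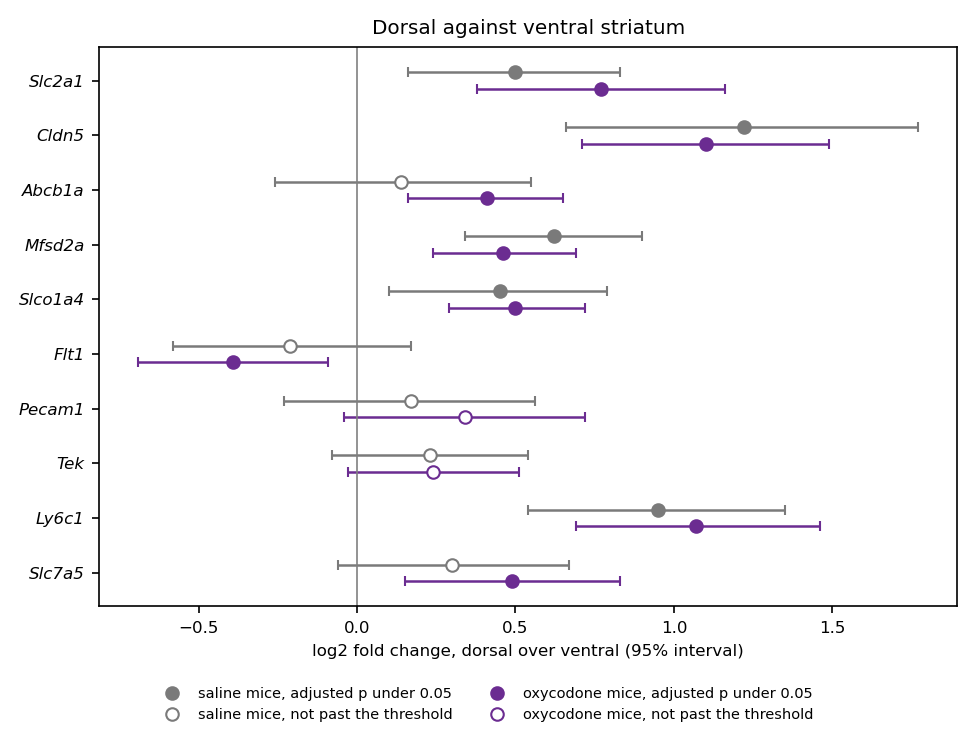
Log2 fold change of dorsal over ventral striatum (horizontal axis) for the 10 genes (vertical axis) in saline (grey) and oxycodone (purple) mice, with 95% intervals. Filled points passed an adjusted p of 0.05 by edgeR, 5 in saline and 8 in oxycodone mice. Cldn5 and Ly6c1 are farthest to the right, and Flt1 is the one gene left of 0.

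Other genes of the barrier and of the vessel wall were read from the same fits. In dorsal striatum oxycodone changed 0 of 13 further junction genes, 0 of 22 further transporters and receptors, 0 of 17 genes of Wnt signalling, which induces the barrier, and 0 of 13 tested genes of VEGF and angiopoietin signalling. Their median log2 changes were 0.09, 0.06, -0.03 and -0.09. The junction gene occludin (Ocln) had the lowest p of its list, averaging 18.2 ± 3.11 CPM with saline against 12.4 ± 1.08 CPM with oxycodone, without overlap (log2 change -0.54, adjusted p 0.493 by edgeR). Glucose is not the only cargo on these lists: Slc19a3, a thiamine carrier, had 2.54 ± 1.33 and 5.12 ± 0.729 CPM (log2 change 0.99, adjusted p 0.722 by edgeR). None of 13 tested genes of leaky or inflamed endothelium passed, with a median of 0.56. Among them Ackr1, a chemokine receptor of venules, had 26.2 ± 6.28 and 38.6 ± 7.74 CPM (log2 change 0.56, adjusted p 0.301 by edgeR), and Icam1, an adhesion receptor for white blood cells, had 10.1 ± 4.12 and 23.8 ± 18 CPM.

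Of 34 tested general endothelial genes 1 rose in dorsal striatum, Ly6a, of the same gene family as Ly6c1 and with some shared transcript sequence. It averaged 26.5 ± 5.37 CPM with saline against 53.3 ± 20.9 CPM with oxycodone, without overlap, a log2 change of 1.01 (SE 0.20) with an adjusted p of 0.0431 (edgeR). The call held in 4 of the 10 fits that left out 1 library, with the log2 change between 0.74 and 1.13. It was lost with summed title-number pairs (adjusted p 0.217), with the title suffix as a covariate (0.134), with all 22 libraries in 1 fit (0.254), and in the libraries without (0.623) or with the suffix (0.999), all by edgeR. Of 11 pericyte genes, for the cells that wrap capillaries, none passed; Abcc9 had 30.3 ± 6.94 and 48.4 ± 11.2 CPM (log2 change 0.68, adjusted p 0.0721 by edgeR). Genes of vascular smooth muscle and of perivascular fibroblasts and meninges had dorsal medians of -0.14 and -0.15, none past the test. In ventral striatum no gene on any of the 17 lists passed the edgeR test, with or without the sixth libraries. There all 6 tested smooth muscle genes had log2 changes below 0, with a median of -0.98 (-1.07 without the sixth libraries). All 8 fibroblast and meninges genes did too, with a median of -0.73 (-0.24 without them).

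Blood cell genes mostly had log2 changes above 0 for oxycodone in both regions. In ventral striatum all 6 tested white blood cell genes (median 0.75) and all 6 red blood cell genes (0.4) did, none past the test. Without the sixth libraries these ventral medians were 1.58 and 0.95, over 5 tested genes each. In dorsal striatum 7 of 10 white blood cell genes were tested, and 4 rose: Plac8, Ptprc, Itgal and Itgb2. Microglia also express Ptprc and Itgb2. Of the other 3, S100a8 and S100a9 had log2 changes of 2.02 and 0.74 and Ccr2 one of -1.31, none past the test. Ptprc, the common leukocyte antigen, averaged 13.6 ± 1.65 CPM with saline against 28.4 ± 9.67 CPM with oxycodone (log2 change 1.07, adjusted p 0.015 by edgeR). The list's summed level ran from 28.1 to 38.1 CPM with saline and from 54.6 to 126 CPM with oxycodone. The T cell gene Cd3e had 0 counts in all 10 dorsal libraries, and the neutrophil gene Ly6g had 0 in the saline ones. Of 6 red blood cell genes 1 passed, Alas2, an enzyme of haem synthesis (0.76, adjusted p 0.0197 by edgeR), and all 6 had log2 changes above 0. Their summed level ran from 411 to 631 CPM with saline and from 596 to 1790 CPM with oxycodone, highest in oxycodone replicate 5, which also had the highest Slc2a1, Cldn5, Pecam1 and Ly6c1 of its group. Of 9 microglia genes none passed, 8 had log2 changes above 0, and the median was 0.25. Csf1r, the receptor for colony stimulating factor on microglia and macrophages, had 166 ± 6.6 and 196 ± 21.9 CPM without overlap (adjusted p 0.413 by edgeR). The part of blood cell or microglial RNA in the dorsal values of Slc2a1, Pecam1 and Ly6c1 was not tested.

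**Figure D4:**
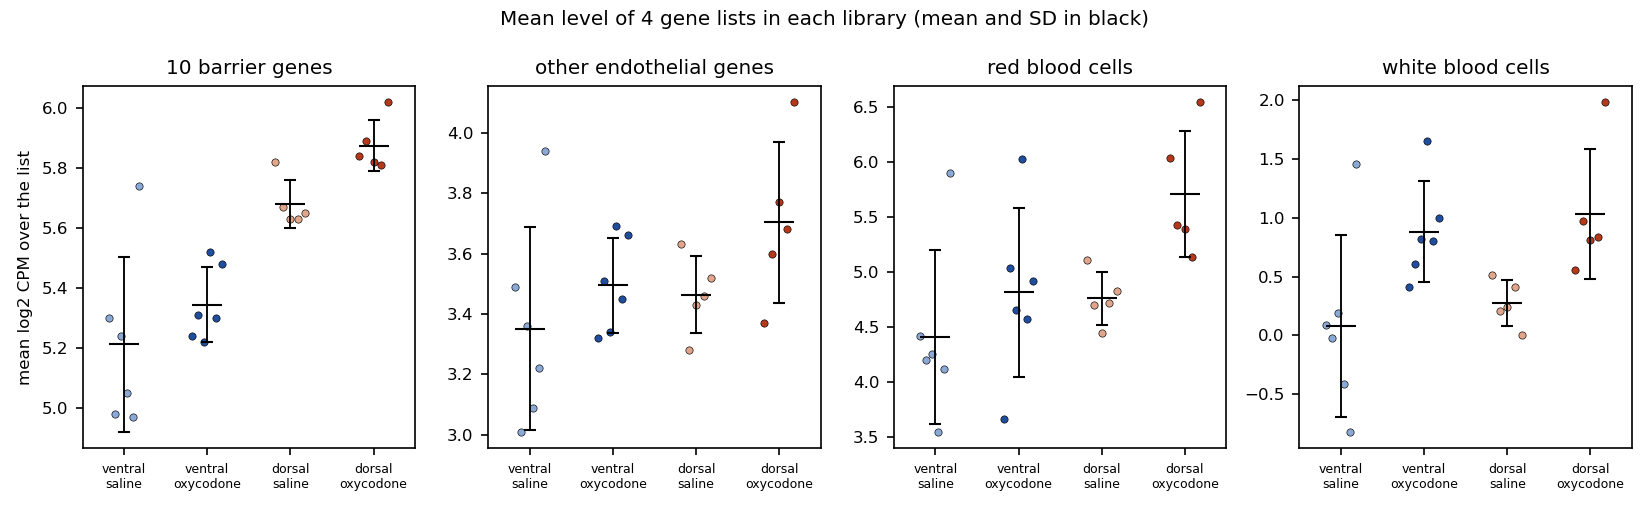
Mean log2 CPM (vertical axes, each with its own range) over the 10 barrier genes, 35 other endothelial genes, 6 red blood cell genes and 10 white blood cell genes in each of the 22 libraries (horizontal axis by group). Black marks are the mean and SD. The last dorsal oxycodone library, replicate 5, and the last ventral saline library, replicate 6, are the highest of their groups in all 4 panels.

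The members' mean log2 level per library ran from 5.63 to 5.82 in saline dorsal, 5.81 to 6.02 in oxycodone dorsal, 4.97 to 5.74 in saline ventral and 5.22 to 5.52 in oxycodone ventral striatum. After the mean of each group was taken off, the 10 genes varied with each other only loosely. Over the 45 pairs the median correlation was 0.19 over 22 libraries, with a range of -0.53 to 0.84, and 0.08 without the sixth ventral libraries. Pecam1 followed the mean of the other 9 most closely (r = 0.74, and 0.71 over 20 libraries), and Ly6c1 was at 0.49 and 0.52. Cldn5 (0.55 and 0.14), Abcb1a (0.66 and 0.27) and Flt1 (0.41 and -0.05) followed it mainly through the sixth libraries, and Mfsd2a did not (-0.3 and 0.04). Libraries of a group differed in depth, dissected tissue and blood content. Summed red blood cell genes, for instance, ran from 138 to 804 CPM in oxycodone ventral libraries. The part of these differences in the correlations was not tested.

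The gene whose centred level was most like the members' mean over 22 libraries was Tgfbr2, a receptor for transforming growth factor beta (r = 0.95, and 0.89 over 20 libraries, again the highest of 13912 genes ranked). Tgfbi (0.91 over 22 libraries, 0.75 over 20), the myeloid lysozyme gene Lyz2 (0.90 and 0.81), the endothelial adhesion receptor gene Adgrf5 (0.90 and 0.82), the macrophage receptor gene Mrc1 (0.89 and 0.72), Cd34 (0.88 and 0.67), Pde5a (0.87 and 0.72) and Slfn2 (0.87 and 0.84) followed. Of these 8 only Tgfbr2, Adgrf5 and Slfn2 were also among the 8 highest over 20 libraries, where Lyz2 ranked 13, Mrc1 39 and Cd34 76. Of whole lists, the general endothelial one was most like the members (0.89 and 0.8), followed over 22 libraries by leaky or inflamed endothelium (0.86 and 0.7). The red and white blood cell lists were at 0.8 and 0.79 over 22 libraries and at 0.68 and 0.63 over 20, VEGF and angiopoietin signalling was at 0.71 and 0.68, and striatal projection neurons ran the other way (-0.74 and -0.43).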

How the data were processed

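Total RNA depleted of ribosomal RNA was sequenced in 22 striatal libraries with a stranded kit, per the labels' protocols. The authors deposited 1 table of raw counts per gene. CASAVA 1.8.2, STAR 2.3, featureCounts and the builds mm10, GRCm38 and mm9 are named, without roles, in the submitters' processing notes; the strand setting and the treatment of multi-mapping reads are not given in the sources used here. Reads from antisense genes therefore cannot be told apart from those of the gene they overlap: Gm12868 shares 105 exon bases with Slc2a1 and Gm42686 shares 553 with Abcb1a.

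Of the identifiers, 22282 (96.4%) matched GENCODE M21 on GRCm38, which gave symbols, positions and exon lengths. Each comparison was fitted over all genes kept by filterByExpr with TMM factors and the robust edgeR quasi-likelihood test (edgeR 4.0.16, limma 3.58.1, R 4.3.3), adjusted by Benjamini-Hochberg over all genes tested, with a threshold of 0.05, two-sided. Groups came from the source labels, and replicates are numbered in accession order. Log2 CPM used a prior count of 2. The main edgeR fit of each comparison was tested on simulated counts, and the alternative fits were not. The simulated counts had the same dispersion for every gene and no library apart, unlike the data. Libraries of a group differed by a chi-square of at least 2.88 per degree of freedom, more than counting noise, and each was kept as 1 sample. This does not show that libraries sharing a title number come from different animals.

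The members and the 17 other lists (202 genes) were chosen with earlier results of these data known. Genes named beside the members are up to 3 per list with the lowest unadjusted p in each oxycodone comparison, the copies Abcb1b and Ly6c2, and the 8 genes most like the members. Itgb2, S100a8, S100a9 and Ccr2 were named outside this rule, after their values were seen, to complete a count. Cd3e and Ly6g were named for having 0 counts in whole groups. Alternatives were other scaling factors and filters, DESeq2 1.42.0, limma-voom, summed copies and summed pairs, lane and title suffix, title number as a block, 1 fit of all libraries and leaving out libraries. Leaving the sixth ventral libraries out of the other lists was added after the data had been seen.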

Additional observations from a re-analysis of the deposited data

Results flagged for a closer look

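Of 44 groups of values looked at for a library apart from its group, 6 had one, where chance gives about 1 in 20. Saline ventral replicate 6 accounted for 4 of them, as the highest library of its group: Cldn5 at 17.8 CPM with the next at 9.34, Abcb1a at 103 CPM with the next at 67.5, Flt1 at 166 CPM with the next at 106, and Slc7a5 at 29.9 CPM with the next at 19.1. This is the library with few striatal neuron markers. Cldn5 was at 15.4 CPM in oxycodone ventral replicate 1, with the next library at 9.99 CPM. The mean log2 level of the 10 genes in saline dorsal replicate 1 was 5.82, with the next library of its group at 5.67.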

How the results depend on the processing

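In dorsal striatum, the number of members passing the test for oxycodone was 2 with DESeq2 and with limma-voom, and 0 in the libraries without the title suffix or with all 22 libraries in 1 fit. It was 0 to 1 on leaving out each library. The number of all genes passing was 86 with DESeq2, 17 without and 1 with the suffix, 5 in 1 fit, and 1 to 63 on leaving out each library: 63 without oxycodone replicate 3, and 1 without saline replicate 5. Slc2a1 was the member lost in 1 fit (adjusted p 0.347), and Ly6c1 the one gained with DESeq2 and limma-voom. In ventral striatum 38 genes passed with DESeq2 and 61 with limma-voom, none a member. The ventral median of the members was 0.32 without the sixth libraries and -0.16 in lane 2 alone, and 0.06 to 0.32 on leaving out each library. Between regions in saline mice, 9 members passed with limma-voom, 8 without the sixth libraries, and 3 to 8 on leaving out each library, with medians of 0.54 without the sixth libraries and 0.33 to 0.54. Between regions in oxycodone mice, 8 members passed in the main fit and 9 with limma-voom. With upper quartile factors, library totals, summed pairs or without the sixth libraries 7 passed, with Flt1 lost. On leaving out each library 6 to 9 passed. The causes were not tested. Apart from this loss of Flt1, other scaling factors and filters moved none of these counts of members or medians past these bounds. Libraries with the same title number deviated together in 1 of 10 pairs across regions (r -0.08 to 0.29). Because the dissections differ, this cannot show whether such libraries come from the same animal. With the title number as a replicate block, 5 members and 5816 genes passed in saline mice, 9 and 6632 in oxycodone mice, and 0 for the difference between regions. Ventral libraries are the shallower ones, and Cldn5 and Slc7a5, the members with the lowest CPM there, have the least counting precision.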
